A study of Mus musculus with 2 samples.

Results

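The genes of glycolysis and of the pentose phosphate pathway were followed through single visceral adipose tissue (VAT) leukocytes of calorically restricted (CR) and obese mice. The set was fixed by symbol, and all 32 symbols were found among the 27998 genes of the count tables: glucose transporters, hexokinases, the enzymes from glucose-6-phosphate isomerase to lactate dehydrogenase, lactate transporters, regulators of phosphofructokinase and of pyruvate dehydrogenase, and 6 pentose phosphate enzymes. The rule used no measured value, but the genes were chosen with earlier results of these data known. They were left out of the genes on which cells were clustered.

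Glycolysis splits glucose into pyruvate and yields ATP without oxygen, and lactate dehydrogenase and the monocarboxylate transporters carry its end product out of the cell. The pentose phosphate pathway branches off at glucose-6-phosphate, makes NADPH in its oxidative arm and ribose for nucleotides, and returns carbon to glycolysis through transketolase and transaldolase in its non-oxidative arm. Leukocytes draw on glycolysis when they are activated or divide, and phagocytes spend NADPH on the oxidative burst, on glutathione and on lipid synthesis.

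The data were 1 library of CR mice and 1 library of obese mice, each of live CD45+ cells sorted from perigonadal VAT and prepared with droplet 3′ chemistry, in which each captured transcript gives a unique molecular identifier (UMI) count that does not scale with gene length. Both groups were C57BL/6J male mice bought at 6 weeks of age, acclimated for 2 weeks, given for 24 weeks a diet in which fat supplied 60% of kcal and cholesterol 0.3%, and injected every week with 5 mg/kg of an antisense oligonucleotide against the low-density lipoprotein receptor. For CR, the same diet was afterwards cut to 70% of what the mice had eaten freely, for 2 weeks, whereas the obese mice had not been restricted. The diet label of the CR library instead speaks of restriction for life, which differs from the study's methods, and the number of mice pooled into a library is not given in the sources used here. The obese mice were collected at 24 weeks of diet, before the restriction of the CR mice began, so the CR mice had 2 further weeks of age and diet. With 1 library each, condition, age, time of collection and library preparation cannot be told apart.

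The CR library held 3562 cell barcodes with 19696476 UMIs, and the obese library 5795 barcodes with 42948242 UMIs. After filtering, 2987 CR and 5262 obese cells remained, with a median of 4802 UMIs per CR cell and 6740.5 UMIs per obese cell. The libraries shared 28 barcode sequences. Clusters were named from fixed marker lists, and every class name below stands for "like" that class: lipid-associated MØ, phagocytic MØ, activated MØ, resident MØ, cycling MØ, patrolling monocyte, cDC1, cDC2, T cell, IL-17-type T cell, NK cell and B cell. A further cluster carried the mast cell markers Cma1, Tpsb2, Cpa3 and Mcpt4 beside the neutrophil genes S100a8, S100a9 and Retnlg, and is called the mast and neutrophil cluster. These 13 classes had at least 50 cells in each library, from 52 CR and 61 obese IL-17-type T cells to 596 CR phagocytic MØs and 931 obese activated MØs. At least 5 markers of a class were over 2-fold higher in its cluster than in the rest. Migratory DCs (47 CR and 82 obese cells) are given by level only, and fibroblast-like, endothelial-like and erythroid-like clusters, in which under 30% of cells had a UMI of Ptprc, the gene of CD45, were set aside.

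Promoters were available for 31 of the 32 genes, from 250 bases before to 50 after a RefSeq start site on GRCm38.p6. Those of 5 genes are printed 5′ to 3′. Pgk1 and Slc16a3 were among the genes higher in CR activated MØs, Ldha encodes lactate dehydrogenase A, and Gapdh and Pgls were lower in CR in most classes. Capitals mark ACGTG or its reverse complement CACGT, the core of hypoxia response elements, which also lies within the E-box CACGTG. The Pgk1 window is chrX:106186850-106187149 on the plus strand, that of Slc16a3 chr11:120948817-120949116 on the plus strand, the first of 2 Ldha windows chr7:46845554-46845853 on the plus strand, that of Gapdh chr6:125165724-125166023 on the minus strand and that of Pgls chr8:71591934-71592233 on the plus strand.
Pgk1: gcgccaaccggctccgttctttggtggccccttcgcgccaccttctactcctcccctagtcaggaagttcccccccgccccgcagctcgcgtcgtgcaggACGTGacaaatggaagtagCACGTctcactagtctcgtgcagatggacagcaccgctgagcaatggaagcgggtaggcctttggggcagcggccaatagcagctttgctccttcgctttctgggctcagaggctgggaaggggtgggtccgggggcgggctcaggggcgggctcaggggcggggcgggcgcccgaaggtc
Slc16a3: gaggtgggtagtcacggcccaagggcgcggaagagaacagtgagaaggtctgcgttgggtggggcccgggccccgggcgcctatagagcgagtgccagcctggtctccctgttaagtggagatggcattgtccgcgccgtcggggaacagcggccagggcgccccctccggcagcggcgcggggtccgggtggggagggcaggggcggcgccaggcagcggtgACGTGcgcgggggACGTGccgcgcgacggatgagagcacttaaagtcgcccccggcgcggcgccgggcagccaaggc
Ldha: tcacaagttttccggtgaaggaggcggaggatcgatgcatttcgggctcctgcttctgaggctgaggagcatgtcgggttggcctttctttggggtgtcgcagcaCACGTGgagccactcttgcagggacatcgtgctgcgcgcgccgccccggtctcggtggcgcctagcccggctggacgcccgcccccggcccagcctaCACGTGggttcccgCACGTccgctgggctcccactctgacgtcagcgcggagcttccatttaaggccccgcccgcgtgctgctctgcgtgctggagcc
Gapdh: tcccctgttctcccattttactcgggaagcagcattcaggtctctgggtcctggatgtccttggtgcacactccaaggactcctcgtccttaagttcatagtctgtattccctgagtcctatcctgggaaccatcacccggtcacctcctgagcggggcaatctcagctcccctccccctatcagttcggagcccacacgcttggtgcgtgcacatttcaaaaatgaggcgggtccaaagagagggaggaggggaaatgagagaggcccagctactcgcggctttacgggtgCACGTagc
Pgls: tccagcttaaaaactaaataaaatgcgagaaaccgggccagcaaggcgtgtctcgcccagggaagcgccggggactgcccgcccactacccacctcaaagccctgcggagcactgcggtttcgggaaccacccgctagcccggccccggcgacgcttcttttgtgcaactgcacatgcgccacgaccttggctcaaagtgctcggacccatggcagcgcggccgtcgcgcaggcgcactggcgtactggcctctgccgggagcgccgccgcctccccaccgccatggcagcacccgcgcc

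The letters ACGTG were found on either strand in 2 places of the Pgk1 window, 150 and 131 bases before the start, in 2 places of the Slc16a3 window, 27 and 14 bases before it, and in 5 places of the printed Ldha window. There 2 pairs of these matches overlap to form CACGTG. The other Ldha window, chr7:46846832-46847131 on the plus strand, had 0 matches. The Gapdh window had 1 match, 42 bases behind the start, and the Pgls window none. Aldoa and Pkm, also higher in CR activated MØs, are not printed. Each had a window with 0 matches and at least 1 window with a match. Over all windows of these genes, 18 of 45 (40.0%) held the letters, from 15 of the 31 genes. Among 32851 promoter windows of the same length 6447 (19.6%) held them, and 2349 (7.2%) held CACGTG. A match is a description of letters, and nothing about a factor follows from it or from its absence.

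Levels are given in CPM, the UMIs of a gene per 1e6 UMIs of its class, with an exact Poisson 95% interval. The CR over obese ratio is on the log2 scale after 5 CPM were added to each side, with an exact binomial 95% interval. Both intervals cover counting error only, since the spread between mice or libraries cannot be had from 1 library per condition, so there is no replicate check and no test, and a difference of at least 1.5-fold is named as such. A gene counted as measured in a class at 20 UMIs or more over both libraries and at least 50 CPM in either of them. By that limit 23 of the 32 genes were measured in some class and 12 in all 13 classes. Slc2a1, Pfkm, Aldoc, Ldhb, Slc16a1, Pfkfb3, Pfkfb4, Pdk1 and Rpe were measured in none of the 13. The sums of the 18 glycolytic enzyme genes and of the 6 pentose phosphate genes show how unevenly the classes used them. Glycolytic enzymes summed highest in activated MØs in the CR library, at 4981 CPM in CR and 3751 CPM in obese, and in lipid-associated MØs in the obese library, at 4606 CPM in CR and 4897 CPM in obese. Resident MØs had the lowest sum in each library, 2601 CPM in CR and 2312 CPM in obese. Pentose phosphate genes summed highest in cDC1s in the CR library, at 1478 CPM in CR and 1283 CPM in obese, and in patrolling monocytes in the obese library, at 1321 CPM in CR and 1536 CPM in obese. Their sum was lowest in T cells at 522 CPM in CR and 669 CPM in obese.

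**Figure D1:**
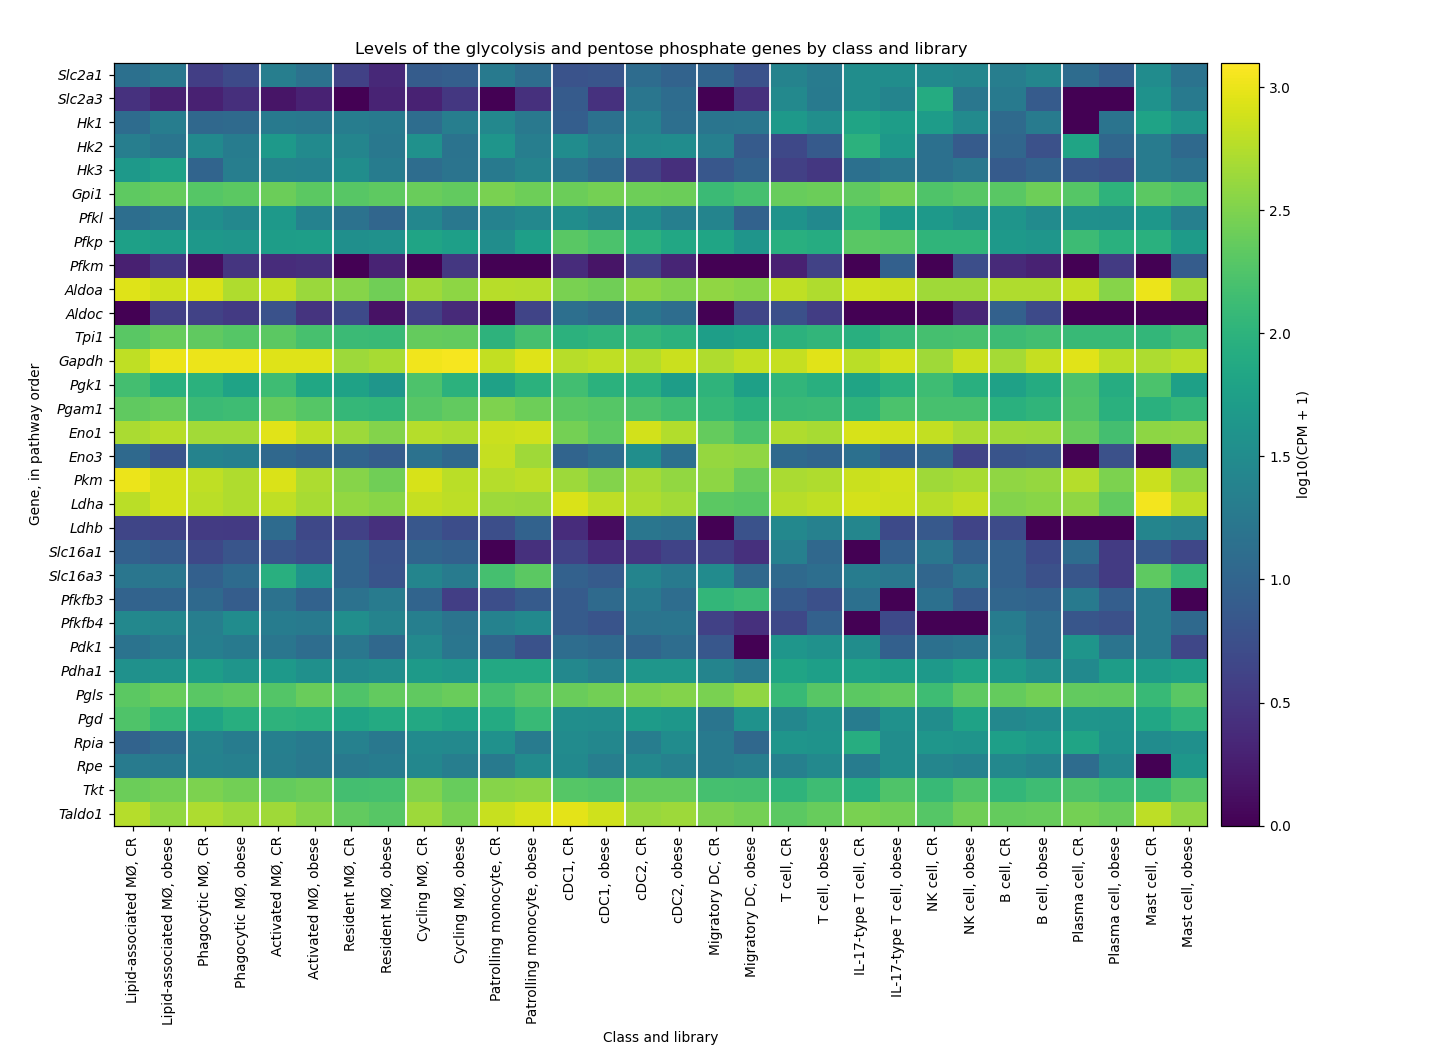
Level of each of the 32 genes (rows, in pathway order) in 15 classes (columns, CR left of obese in each pair), as log10 of CPM + 1. Aldoa, Gapdh, Eno1, Pkm and Ldha stand out in nearly every class, whereas Eno3, Hk3, Slc16a3 and Slc2a3 are bright in few of them.

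Glucose uptake genes were among the lowest. Slc2a1, the ubiquitous transporter GLUT1, had 11.5 CPM in CR and 11.1 CPM in obese leukocytes as a whole, and its highest class was the IL-17-type T cell in both libraries, at 32.1 CPM in CR and 32.0 CPM in obese. Slc2a3, the high-affinity transporter GLUT3, was near 0 in MØs, with at most 3 UMIs in any CR MØ class and 8 in any obese MØ class. In NK cells Slc2a3 had 25 UMIs in CR (80.0 CPM, 51.8 to 118) and 14 in obese (15.7 CPM, 8.59 to 26.4), a log2 ratio of 2.04 (1.18 to 2.86). It reached the minimum level in CR NK cells only. Slc2a3 therefore had to be higher in CR there, and neither its interval nor a change of settings can make up for that. The interval of this ratio lay above 0, and the ratio stayed past 1.5-fold in all 15 alternative settings that gave a value. These settings reuse the same libraries.

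Hexokinases, which trap glucose as glucose-6-phosphate, were divided among the cell types by isoform. Hk3, the myeloid isoform, held 60% (49.1 to 70.2%) of the hexokinase UMIs of CR lipid-associated MØs and 62.8% (59.2 to 66.3%) in obese, at 47.1 CPM in CR and 58.7 CPM in obese. In T cells Hk1, the broadly expressed isoform at the outer mitochondrial membrane, held 87.7% (76.3 to 94.9%) in CR and 79.0% (69.4 to 86.6%) in obese, and Hk3 was at 2.81 CPM in CR and 2.18 CPM in obese. Hk2, the inducible isoform, held more than Hk1 or Hk3 in activated MØs in both libraries, 53.1% (45.5 to 60.7%) in CR and 43.3% (39.0 to 47.8%) in obese. Phagocytic MØs differed between the libraries in this respect: Hk2 held 60.3% (52.1 to 68.0%) in CR and 38.4% (29.8 to 47.5%) in obese, and Hk3 held 18.6% (12.8 to 25.6%) in CR and 40.0% (31.3 to 49.1%) in obese. Cycling MØs showed a shift towards Hk2 as well, with 60.7% (47.3 to 72.9%) in CR and 28.7% (22.3 to 35.9%) in obese, on 61 and 181 hexokinase UMIs. In both of these classes the CR and obese intervals of the Hk2 share did not overlap. Those of Hk3 in phagocytic MØs did not overlap either. The same held for Hk1 in cycling MØs (19.7% in CR, 41.4% in obese) and in cDC1s (13.9% in CR, 31.0% in obese). How often such intervals lie apart was not counted over all genes, and they cover counting error only. Hk2 was below the minimum in both libraries in phagocytic MØs and in cycling MØs, where it was 36.4 CPM in CR and 14.2 CPM in obese. In IL-17-type T cells Hk2 was 96.3 CPM in CR and 44.0 CPM in obese, a log2 ratio of 1.05 (−0.09 to 2.18) on 15 and 11 UMIs. Hk1 in NK cells was 51.2 CPM in CR and 29.2 CPM in obese, a log2 ratio of 0.72 (−0.16 to 1.56) on 16 and 26 UMIs, and it lost the 1.5-fold difference in 6 of 15 settings. Both of these intervals include 0, and both genes reached the minimum level through CR alone.

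Gpi1, which turns glucose-6-phosphate into fructose-6-phosphate, was even across the classes. It ranged over the 13 classes from 176 to 299.6 CPM in CR and from 176 to 282 CPM in obese, so that its highest class was at 1.702 times its lowest in CR and 1.6 times in obese, the smallest such fold of the 32 genes in each library. It had log2 ratios of −0.36 to 0.28 and none past 1.5-fold. Phosphofructokinase, the committing step, was made up mainly of the platelet isoform Pfkp and the liver isoform Pfkl, and the muscle isoform Pfkm was at 0.86 CPM in CR and 1.78 CPM in obese leukocytes. Pfkp was highest in cDC1s (204 CPM in CR, 168 CPM in obese) and IL-17-type T cells (199 CPM in CR, 192 CPM in obese), against 33.7 CPM in CR and 36.1 CPM in obese resident MØs. In cDC1s Pfkp held 85.7% (81.4 to 89.4%) of phosphofructokinase UMIs in CR and 87.1% (84.5 to 89.4%) in obese. Activated MØs were the only compared class in which the CR and obese intervals of the Pfkl share did not overlap: Pfkl held 46.5% (39.4 to 53.7%) in CR and 28.9% (25.2 to 32.8%) in obese. Here too no count over all genes stands beside the shares. Pfkl there was 46.6 CPM in CR and 22.5 CPM in obese, below the minimum, while Pfkp was 52.2 CPM in CR and 53.7 CPM in obese, a log2 ratio of −0.04 (−0.33 to 0.25). In IL-17-type T cells Pfkl was 109 CPM in CR and 48.0 CPM in obese, a log2 ratio of 1.11 (0.03 to 2.19) on 17 and 12 UMIs, and passed the minimum through CR alone. In patrolling monocytes Pfkp was 31.8 CPM in CR and 55.5 CPM in obese, a log2 ratio of −0.72 (−1.88 to 0.36) on 7 and 33 UMIs, and passed the minimum through obese alone.

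Aldolase, which splits fructose-1,6-bisphosphate, was Aldoa almost alone. Aldoa (chr7:126795234-126800751 on mm10, minus strand) had 608.5 CPM in CR and 463.5 CPM in obese leukocytes, and Aldoc 5.04 CPM in CR and 3.30 CPM in obese. In phagocytic MØs Aldoa was 832.5 CPM (2706 UMIs) in CR and 530.6 CPM (1326 UMIs) in obese, a log2 ratio of 0.65 (0.55 to 0.74). In activated MØs it was 651.5 CPM in CR and 428.5 CPM in obese, a log2 ratio of 0.60 (0.51 to 0.69). Among the 13 classes 12 had a ratio above 0, but only 8 did with edgeR's TMM factors, which moved the median of all genes by −0.28 to −0.06, and neither ratio then passed 1.5-fold. It lost the 1.5-fold difference in 7 of 15 settings in phagocytic MØs and in 4 of 12 in activated MØs. The next enzyme, the triosephosphate isomerase gene Tpi1, ranged from 89.9 to 234 CPM in CR and from 97.3 to 239.5 CPM in obese. Its only ratio past 1.5-fold was in patrolling monocytes, 99.9 CPM in CR and 153 CPM in obese, −0.59 (−1.29 to 0.07).

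Gapdh, the glyceraldehyde-3-phosphate dehydrogenase gene that is often used as a reference, was no constant in these cells. Gapdh (chr6:125161715-125166467, minus strand) was lower in CR in 12 of 13 classes and at 0.00 in activated MØs (899 CPM in CR, 898.5 CPM in obese). With TMM factors it was below 0 in all 13, but these factors lowered the ratios of every class and could not have raised it. Gapdh was above 0 in 2 of 12 classes with limits of 5 median absolute deviations. It was above 0 in 2 of 13 with the described genes kept for clustering, in 1 of 13 at a resolution of 1.0 and in 1 of 9 in cells without cell division transcripts. In lipid-associated MØs it was 638 CPM (732 UMIs) in CR and 1013 CPM (7894 UMIs) in obese, a log2 ratio of −0.66 (−0.77 to −0.55). In NK cells it was 457.5 CPM in CR and 713 CPM in obese, a log2 ratio of −0.63 (−0.90 to −0.37). The T cell ratio was −0.46 (−0.59 to −0.34), from 662 CPM in CR and 915 CPM in obese, and both clusters that make up the T cells gave it, −0.45 and −0.49. Across classes Gapdh was highest in cycling MØs, 1093 CPM in CR and 1148 CPM in obese, and lowest in resident MØs, 442 CPM in CR and 493 CPM in obese. These values are uncertain in a respect that is the same for both libraries: of the 60-base windows in the last 500 bases of its transcripts, 61.1% are shared with transcripts of 142 other genes.

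Pgk1, phosphoglycerate kinase, catalyses the first step of the pathway that yields ATP and was the gene with the most ratios past 1.5-fold. Pgk1 (chrX:106187100-106203699, plus strand) was higher in CR in all 5 MØ classes, with log2 ratios of 0.48 to 0.92. In activated MØs it had 273 UMIs in CR (137 CPM, 121 to 154) and 512 UMIs in obese (70.1 CPM, 64.1 to 76.4), a log2 ratio of 0.92 (0.71 to 1.12). Lipid-associated MØs had 147 CPM in CR and 90.99 CPM in obese, a ratio of 0.67 (0.43 to 0.90). In cycling MØs the levels were 172 CPM in CR and 97.2 CPM in obese, with a ratio of 0.79 (0.53 to 1.05). cDC2s had 89.2 CPM in CR and 52.7 CPM in obese, and a ratio of 0.71 (0.30 to 1.11). All of these intervals lay above 0. With TMM factors 10 of the 13 classes were still above 0, but 2 in place of 5 were past 1.5-fold and 2 in place of 1 were past it in the other direction. Patrolling monocytes went the other way, with 59.0 CPM in CR and 94.2 CPM in obese, a ratio of −0.63 (−1.53 to 0.20) on 13 and 56 UMIs, as did IL-17-type T cells at −0.49 (−1.62 to 0.57) and B cells at −0.43 (−0.95 to 0.08). All 3 of those intervals include 0. Pgam1, the phosphoglycerate mutase gene of the next step, was highest in patrolling monocytes, at 313 CPM in CR and 259 CPM in obese. Its only ratio past 1.5-fold was in IL-17-type T cells, −0.65 (−1.54 to 0.18), from 103 CPM in CR and 164 CPM in obese.

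**Figure D2:**
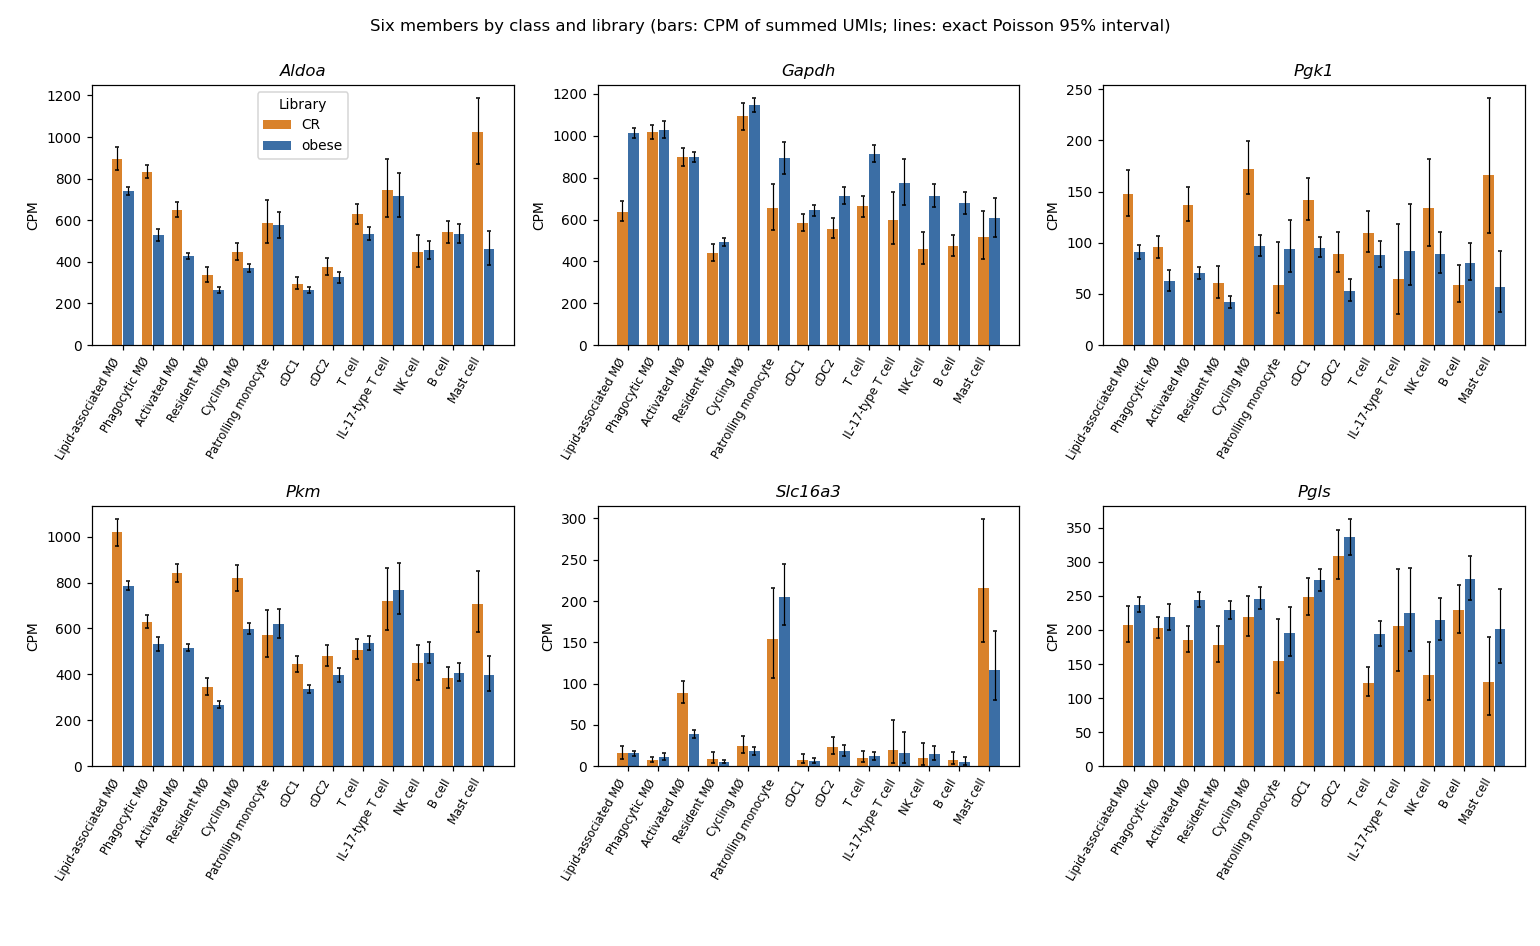
Levels of Aldoa, Gapdh, Pgk1, Pkm, Slc16a3 and Pgls in the 13 compared classes, as CPM of summed UMIs (bars, CR left of obese) with exact Poisson 95% intervals (lines). In activated MØs the CR bars of Aldoa, Pgk1, Pkm and Slc16a3 stand above the obese bars with intervals apart, whereas Gapdh is at 899 CPM in CR and 898.5 CPM in obese and Pgls is lower in CR.

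Enolase showed an isoform bound to particular cells. Eno1, the general isoform, held at least 94.7% of enolase UMIs in 12 of the 13 compared classes, but Eno3, known as the muscle isoform (chr11:70657202-70662513, plus strand), held 48.8% (43.1 to 54.6%) in CR and 37.6% (34.1 to 41.3%) in obese patrolling monocytes. Eno3 there was 672 CPM (148 UMIs) in CR and 457.5 CPM (272 UMIs) in obese, a log2 ratio of 0.55 (0.25 to 0.84). Migratory DCs were the other class with high Eno3, 407 CPM in CR and 387 CPM in obese, or 63.6% (56.7 to 70%) of enolase UMIs in CR and 70.2% (64.9 to 75.1%) in obese. In the remaining 12 compared classes Eno3 was at most 33.2 CPM in CR and at most 21.2 CPM in obese. Eno1 was highest in CR activated MØs, at 915 CPM against 628 CPM in obese activated MØs, a log2 ratio of 0.54 (0.46 to 0.62), and lowest of the 13 in cDC1s, at 283 CPM in CR and 212 CPM in obese. Of the 60-base windows at the end of Eno1 transcripts 66.2% are shared with 6 other genes, so its level is uncertain as well, whereas no window of Eno3 is shared.

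**Figure D3:**
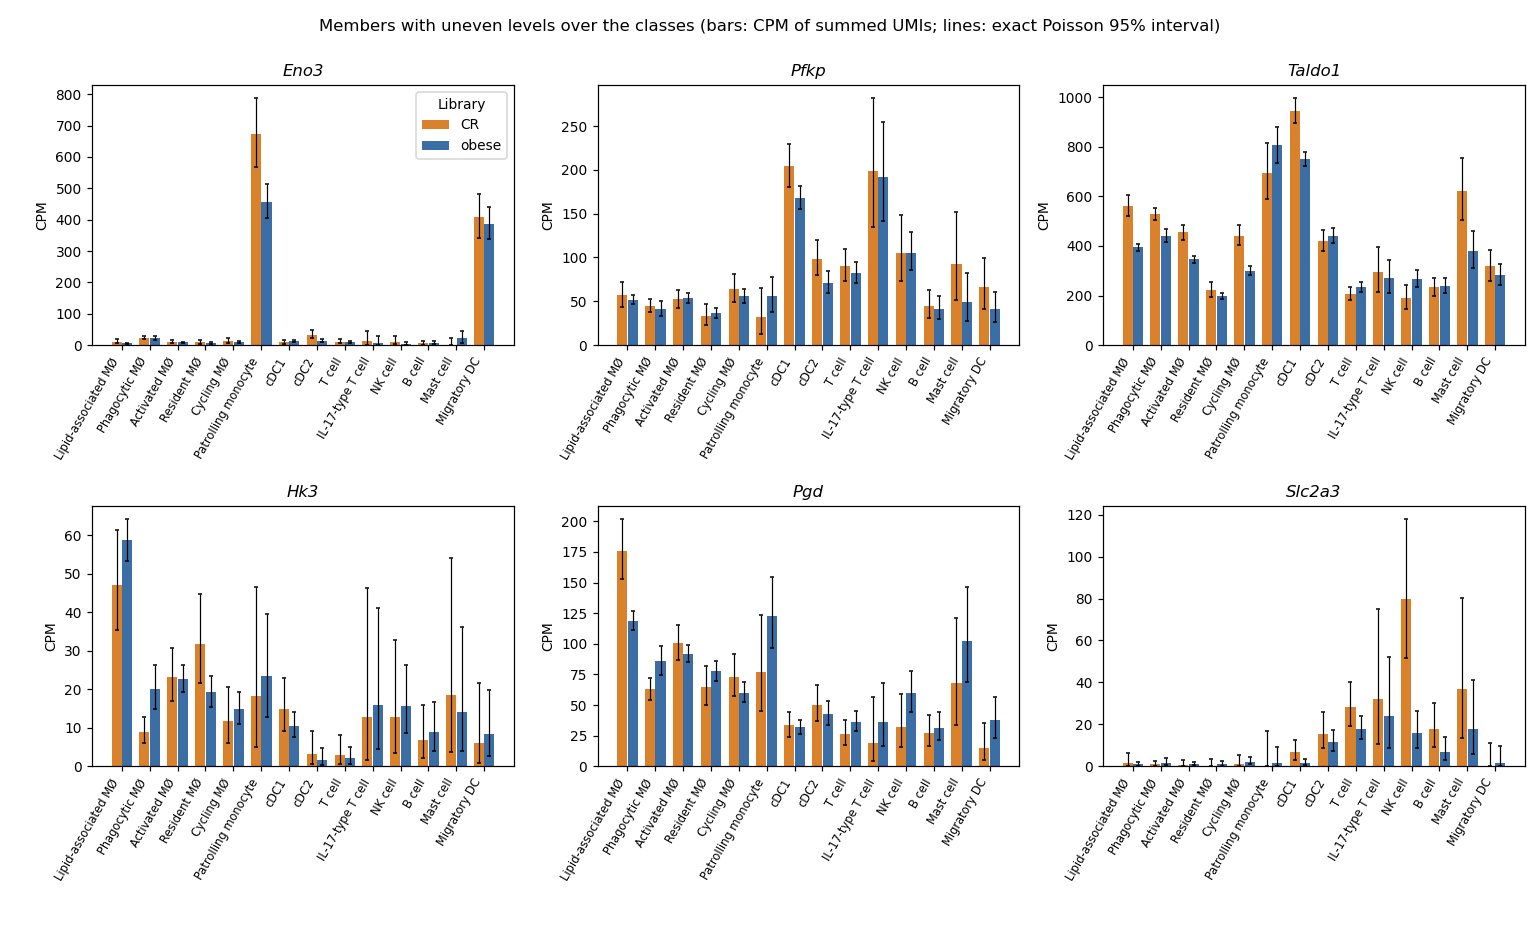
Levels of Eno3, Pfkp, Taldo1, Hk3, Pgd and Slc2a3 in the 13 compared classes and in migratory DCs, as CPM of summed UMIs (bars, CR left of obese) with exact Poisson 95% intervals (lines). Eno3 is above 380 CPM in patrolling monocytes and migratory DCs and below 35 CPM elsewhere, Pfkp and Taldo1 are high in cDC1s, and Hk3 is highest in lipid-associated MØs.

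Pkm, which encodes the pyruvate kinases M1 and M2 that 3′ counts do not tell apart, was highest in lipid-associated MØs, at 1018 CPM in CR and 786 CPM in obese. In activated MØs Pkm (chr9:59656368-59679375, plus strand) was 842 CPM (1678 UMIs) in CR and 516 CPM (3772 UMIs) in obese, a log2 ratio of 0.70 (0.62 to 0.78). It was above 0 in all 5 MØ classes, at 0.24 to 0.70, and below 0 in the 4 lymphocyte classes, at −0.14 to −0.08, where each interval includes 0. Ldha, the lactate-forming subunit, made up nearly all lactate dehydrogenase, and Ldhb reached only 27.2 CPM in CR and 22.2 CPM in obese in its highest class, the T cell. Ldha was 596 CPM in CR and 790 CPM in obese lipid-associated MØs, a log2 ratio of −0.40 (−0.52 to −0.29), and 829 CPM in CR and 626 CPM in obese cDC1s, a ratio of 0.40 (0.30 to 0.51). Outside the mast and neutrophil cluster no Ldha ratio passed 1.5-fold.

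Slc16a3, the lactate exporter MCT4, was the most class-bound gene of the pathway's exit. Slc16a3 (chr11:120948480-120960868, plus strand) was 154 CPM in CR and 205 CPM in obese patrolling monocytes, a log2 ratio of −0.40 (−0.97 to 0.14), and 88.8 CPM (76.2 to 103) in CR and 39.1 CPM (34.7 to 44.0) in obese activated MØs, a ratio of 1.09 (0.83 to 1.34) on 177 and 286 UMIs. It passed the minimum in activated MØs through CR alone. The mast and neutrophil cluster had 215.5 CPM in CR, the highest of the 13 classes there, and 116.3 CPM in obese, a ratio of 0.86. In the other compared MØ, DC and lymphocyte classes Slc16a3 was at most 24.6 CPM in CR and 18.3 CPM in obese. The Slc16a3 ratio of activated MØs passed 1.5-fold in all 12 alternative settings that kept such a class, with values of 0.80 to 1.16. These settings reuse the same libraries, and a gene that passed through CR alone had to be higher there. Slc16a1, the widely expressed transporter MCT1, was at 6.77 CPM in CR and 5.34 CPM in obese leukocytes.

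The regulators were sparse. Pfkfb3, a bifunctional enzyme that raises the activator fructose-2,6-bisphosphate, was measured only in migratory DCs, at 111 CPM in CR and 127 CPM in obese, and its highest level in the 13 compared classes was 18.5 CPM in CR and 18.6 CPM in obese. Its relative Pfkfb4 had 17.3 CPM in CR and 17.7 CPM in obese leukocytes. Pdk1, the kinase that switches off pyruvate dehydrogenase, was highest in T cells, at 41.3 CPM in CR and 35.7 CPM in obese. Pdha1, the catalytic subunit of pyruvate dehydrogenase, was highest in patrolling monocytes, at 72.6 CPM in CR and 74.0 CPM in obese, with no ratio past 1.5-fold in the 6 classes where it was measured.

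In the oxidative arm, Pgls, the 6-phosphogluconolactonase gene (chr8:71592176-71601092, plus strand), was lower in CR in 13 of 13 classes, with log2 ratios of −0.68 to −0.10. T cells had 123 CPM (131 UMIs) in CR and 194 CPM (446 UMIs) in obese, a ratio of −0.64 (−0.92 to −0.36), and NK cells 134 CPM in CR and 214.5 CPM in obese, a ratio of −0.66 (−1.15 to −0.18). Its direction was the same in each class with totals that leave out ribosomal, mitochondrial and haemoglobin genes, and it was above 0 in 1 class with the mean of per-cell CPM. It was also the same with TMM factors, but these lowered the ratios of every class and could not have turned it. No 60-base window of Pgls is shared with another gene. Of the compared classes cDC2s had the highest Pgls level, at 309 CPM in CR and 336 CPM in obese. Pgd, the 6-phosphogluconate dehydrogenase that makes NADPH, was 176 CPM in CR and 119 CPM in obese lipid-associated MØs, a ratio of 0.55 (0.33 to 0.77), but 62.8 CPM in CR and 85.6 CPM in obese phagocytic MØs, a ratio of −0.42 (−0.69 to −0.15). Neither passed 1.5-fold, and these intervals lay on opposite sides of 0. Pgd was 32.0 CPM in CR and 59.5 CPM in obese NK cells, a ratio of −0.80 (−1.75 to 0.09) that passed the minimum through obese alone, and 77.2 CPM in CR and 123 CPM in obese patrolling monocytes, a ratio of −0.64 (−1.43 to 0.10).

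In the non-oxidative arm, Taldo1, transaldolase, was highest in cDC1s and patrolling monocytes, at 946 CPM in CR and 751 CPM in obese cDC1s and 695 CPM in CR and 806 CPM in obese patrolling monocytes. Its ratios were 0.18 to 0.55 in the 5 MØ classes and −0.49 to 0.12 in the 4 lymphocyte classes. Tkt, transketolase, was highest in patrolling monocytes, at 340.5 CPM in CR and 363 CPM in obese, and lowest in CR IL-17-type T cells at 89.9 CPM against 176 CPM in obese IL-17-type T cells, a ratio of −0.93 (−1.86 to −0.07) on 14 and 44 UMIs. The IL-17-type T cell value of Tkt did not hold without alignment of the libraries, where it was 0.01. Rpia, ribose-5-phosphate isomerase, was 83.5 CPM in CR and 32.0 CPM in obese IL-17-type T cells, a ratio of 1.26 (0.00 to 2.51) on 13 and 8 UMIs, passing the minimum through CR alone. Rpe, the epimerase, was 22.2 CPM in CR and 20.2 CPM in obese leukocytes.

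Set side by side, the classes differed in how many of these genes passed 1.5-fold. Over the 13 classes 193 values were measured, of which 21 (10.9%) were at least 1.5-fold higher and 13 (6.7%) at least 1.5-fold lower in CR. Of the 35374 values of all genes measured in these classes 3790 (10.7%) were higher and 2234 (6.3%) lower, so that the shares of these genes were near those of all genes. At or above 50 CPM in both libraries there were 177 values, 13 of them higher and 11 lower. Of the 21 higher values 8 had passed the minimum through CR alone, and 2 of the 13 lower values through obese alone, and such genes had to differ. Without the mast and neutrophil cluster 13 values were higher and 11 lower, and 11 and 5 of these had intervals clear of 0. That count was made after the values had been seen. Neither it nor the count at the minimum in both libraries was made over all genes, so they give no comparison with all genes.

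Activated MØs stood out among the MØ classes by their number of higher values. Of 15 genes measured 4 were higher in CR (Aldoa, Pgk1, Pkm and Slc16a3) and 0 lower, where 7.16% of all genes measured in the class were higher and 2.07% lower. Slc16a3 passed the minimum through CR alone and so had to be higher. At the minimum in both libraries 3 of 14 were higher, a count not made over all genes. With TMM factors Aldoa and Pkm no longer passed 1.5-fold there. The median log2 ratio of the 15 genes was 0.33 and that of all genes measured 0.09. In lipid-associated MØs 1 of 15 was higher (Pgk1) and 1 lower (Gapdh), against 3.39% and 0.877% of all genes, with medians of −0.12 and 0.03. In phagocytic MØs 1 of 14 was higher (Aldoa) and 0 lower, against 10.7% and 6.15%, with medians of 0.16 and 0.13. In resident MØs 0 of 13 passed in either direction, against 5.21% higher and 1.2% lower, and in cycling MØs 1 of 14 was higher (Pgk1) and 0 lower, against 10.9% and 4.91%. In these 4 classes no more than 1 gene passed in either direction.

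The activated MØ cluster also held classical monocyte transcripts, which were higher in CR. Their part in its result was not tested. The 9 markers of classical monocytes summed to 3040 CPM in CR and 1866 CPM in obese activated MØs, and the 11 fibroblast markers to 1354 CPM in CR and 260 CPM in obese. Clustering at the finer resolution of 1.0 gave activated MØs (196 CR and 763 obese cells) and classical monocytes (96 CR and 261 obese cells). These clusters were not a division of the main activated MØ cluster (263 CR and 931 obese cells), since together they held more cells. In the activated MØs so defined 4 of 14 genes were still higher in CR and 0 lower, with a median of 0.33, where all genes gave 8.07% higher, 3.1% lower and a median of 0.06. In the classical monocytes 5 of 18 were higher (Hk2, Pfkl, Pgk1, Eno1 and Slc16a3) and 0 lower, with a median of 0.47, where all genes gave 8.49%, 2.99% and 0.10. Slc16a3 was 60.4 CPM in CR and 30.2 CPM in obese in these activated MØs, and 126 CPM in CR and 56.5 CPM in obese in these classical monocytes. Slc16a3 and Pgk1 were past 1.5-fold in both. Slc16a3 in these activated MØs, and Hk2 (51.4 CPM in CR, 20.2 CPM in obese) and Pfkl (50.1 CPM in CR, 27.7 CPM in obese) in these classical monocytes, passed the minimum through CR alone and so had to differ.

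**Figure D4:**
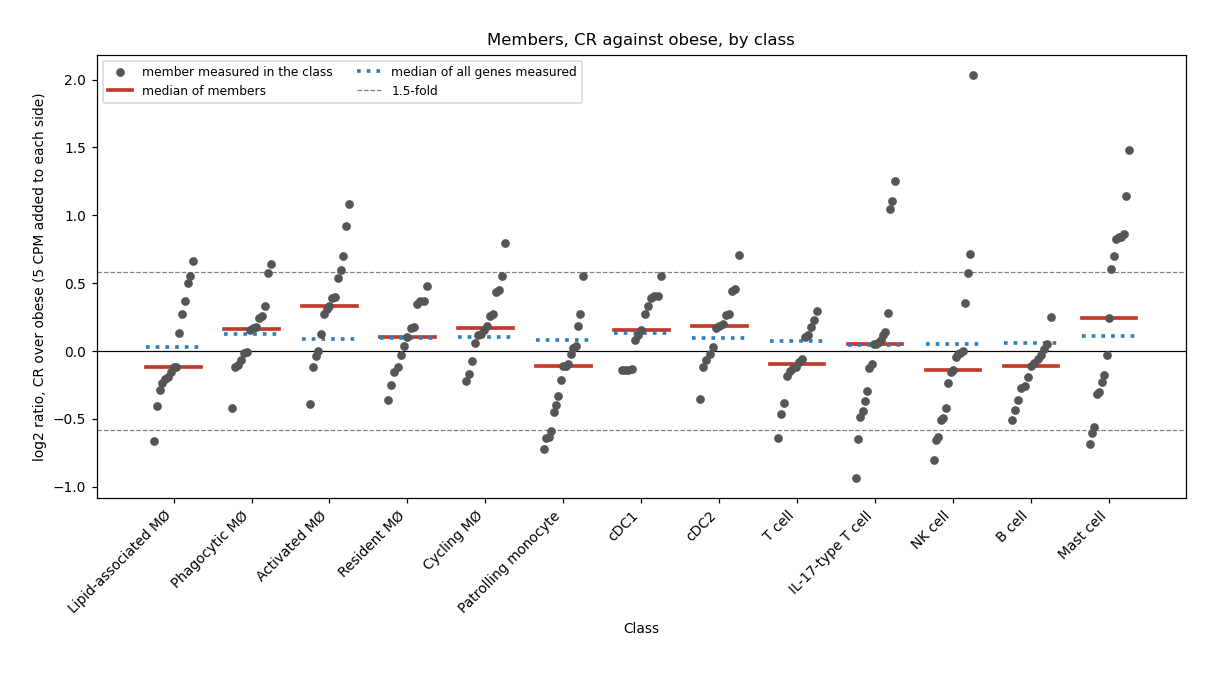
Log2 ratio of CR over obese (5 CPM added to each side) for each gene measured in a class (points), with the median of these genes (solid red line), the median of all genes measured (dotted blue line) and 1.5-fold (dashed). The activated MØ median is 0.33 and that of all genes 0.09, and NK cells hold the highest point, Slc2a3 at 2.04.

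In patrolling monocytes 0 of 17 genes were higher and 4 lower (Pfkp, Tpi1, Pgk1 and Pgd), against 15% and 8.44% of all genes, with medians of −0.11 and 0.09. Each of the 4 lower values rests on 7 to 22 CR UMIs, and each interval includes 0. Pfkp passed the minimum there through obese alone and so had to be lower. The DCs differed little: in cDC1s 0 of 13 genes passed in either direction, against 5.24% higher and 1.15% lower, and in cDC2s 1 of 13 was higher (Pgk1) and 0 lower, against 7.02% and 2.14%. The medians were 0.16 in cDC1s, with 0.13 over all genes, and 0.18 in cDC2s, with 0.10 over all genes.

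The median was below that of all genes in T cells (−0.10 against 0.07), NK cells (−0.14 against 0.05) and B cells (−0.11 against 0.06), and at 0.05 beside 0.05 in IL-17-type T cells. In T cells 0 of 14 genes were higher and 1 lower (Pgls), against 10.6% and 5.84%, and in B cells 0 of 13 passed in either direction, against 10.4% and 7.07%. In NK cells 2 of 17 were higher (Slc2a3 and Hk1) and 3 lower (Gapdh, Pgls and Pgd), against 9.98% and 6.89%. Slc2a3 and Hk1 passed the minimum there through CR alone, and Pgd through obese alone, so these had to differ. In IL-17-type T cells 3 of 18 were higher (Hk2, Pfkl and Rpia) and 2 lower (Pgam1 and Tkt), against 14.5% and 11.7%, each on 8 to 44 UMIs per library. All 3 higher genes passed the minimum there through CR alone and so had to be higher. MØ transcripts also differed between the libraries in the lymphocyte classes. The 12 markers of Apoe-high C1q MØs, none of which was at 0 apart from 1 in CR NK cells, summed to 1738 CPM in CR and 6400 CPM in obese T cells, 2217 CPM in CR and 4819 CPM in obese NK cells, 3677 CPM in CR and 7062 CPM in obese B cells, and 3634 CPM in CR and 5693 CPM in obese IL-17-type T cells. Their part in the lower Gapdh, Pgls and Pgd of CR lymphocytes was not tested.

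In the mast and neutrophil cluster 8 of 17 genes were higher and 2 lower (Pgls and Tkt), against 26.9% and 21.7% of all genes. The higher genes were Hk1, Pfkp, Aldoa, Pgk1, Pkm, Ldha, Slc16a3 and Taldo1. Of these 8 genes 2 passed the minimum through CR alone and so had to be higher, and 6 were at the minimum in both libraries. The interval of Pfkp (−0.23 to 1.90) includes 0. Aldoa was 1022 CPM in CR and 461.5 CPM in obese (log2 ratio 1.14, 0.80 to 1.478), Ldha 1115 CPM in CR and 620 CPM in obese (0.84, 0.54 to 1.15) and Pgk1 166 CPM in CR and 56.4 CPM in obese (1.481, 0.59 to 2.39). The mix of cells in this cluster differed between the libraries. The 7 neutrophil markers summed to 35780 CPM in CR and 23890 CPM in obese, the 7 mast cell markers to 23910 CPM in CR and 13860 CPM in obese, and the 12 Apoe-high C1q MØ markers to 2395 CPM in CR and 21860 CPM in obese. Their part in the result was not tested. Without upper limits on UMIs and mitochondrial share 3 of its higher genes (Pfkp, Pkm and Taldo1) turned negative.

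Classes of a library share its preparation and could be set against each other within it. Of 14 genes measured in lipid-associated and resident MØs of both libraries, 8 were at least 1.5-fold higher in lipid-associated MØs in each library and 0 lower, against 8.39% and 8.72% of all genes. Their median log2 ratio was 0.70 in CR and 0.94 in obese, and that of all genes 0.02 in CR and 0.11 in obese. Pkm led with 1.54 in each library, followed by Aldoa with 1.39 in CR and 1.46 in obese, while Pgd lay just under 1.5-fold in obese, at 1.38 in CR and 0.58 in obese. Phagocytic over resident MØs gave 7 of 13 genes higher and 0 lower, against 13.9% and 9.92%, with Aldoa at 1.29 in CR and 0.98 in obese, Taldo1 at 1.22 in CR and 1.14 in obese and Gapdh at 1.195 in CR and 1.05 in obese. In cDC1s over cDC2s 3 of 13 genes were higher (Pfkp, Pgk1 and Taldo1) and 1 lower, against 7.81% and 14.3%. That lower gene was Eno1, at −1.42 (−1.60 to −1.24) in CR and −1.36 (−1.50 to −1.23) in obese, and Pfkp was at 1.02 in CR and 1.18 in obese. Taldo1 was at 1.16 (1.00 to 1.32) in CR and 0.76 (0.65 to 0.87) in obese.

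**Figure D5:**
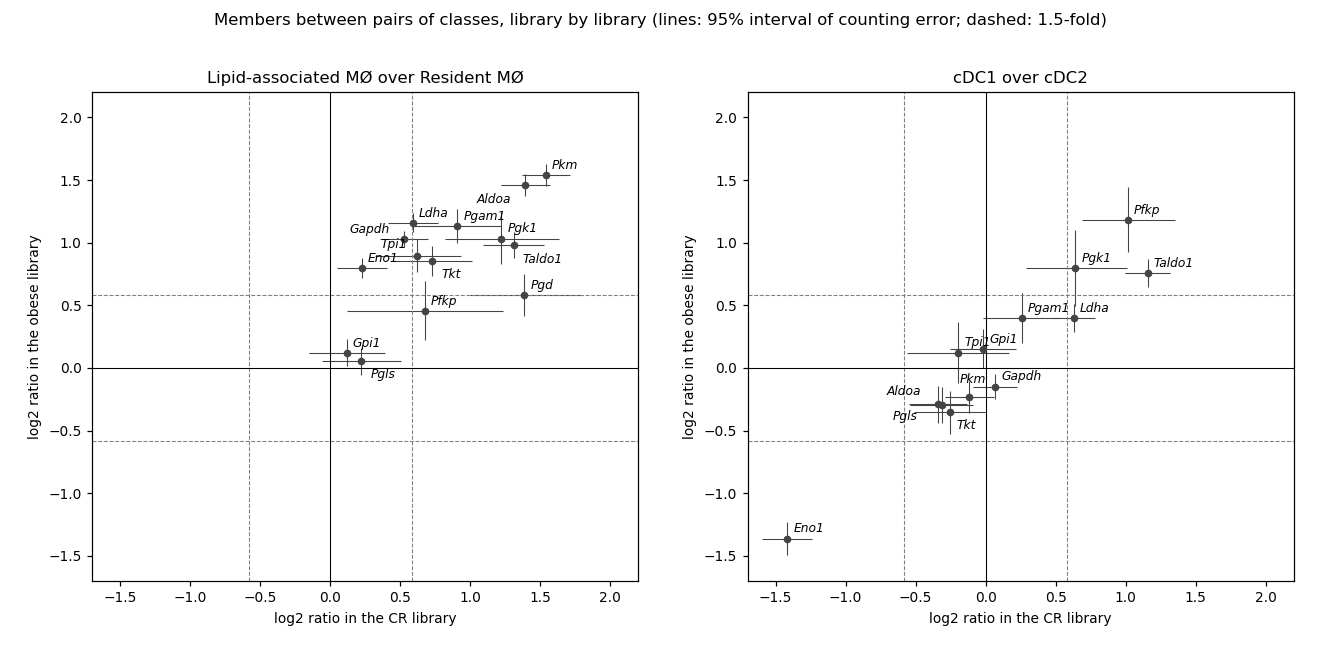
Log2 ratios of single genes between lipid-associated and resident MØs (left) and between cDC1s and cDC2s (right), in the CR library (horizontal axis) and in the obese library (vertical axis), with 95% intervals of counting error (lines) and 1.5-fold (dashed). Pkm and Aldoa lie above 1.3 on both axes on the left, and Eno1 lies below −1.3 on both axes on the right.

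Other genes around the pathway were taken from lists fixed by name, which were also chosen with earlier results of these data known. Of 28 further glycolysis and pentose phosphate genes, such as isozymes not named above, Bsg was measured in all 13 classes and was the only one in 12 of them. Bsg, the chaperone of the lactate transporters, was at 290 CPM in CR and 277 CPM in obese activated MØs. In patrolling monocytes Slc2a6 (log2 ratio 0.40, −0.52 to 1.27) and G6pdx were measured as well. G6pdx was 49.9 CPM in CR and 89.1 CPM in obese, a ratio of −0.78 (−1.74 to 0.11) that passed the minimum through obese alone. Of 19 genes of the hypoxia response outside glycolysis, Hif1a itself among them, 6 were measured in activated MØs, 2 of them higher in CR and 0 lower, against 7.16% and 2.07% of all genes there, with a median of 0.36 and 0.09 for all genes. P4ha1, a collagen prolyl hydroxylase subunit, was 55.2 CPM in CR and 26.6 CPM in obese, a log2 ratio of 0.93 (0.62 to 1.24) that passed the minimum through CR alone, and Mif, the macrophage migration inhibitory factor, was 388 CPM in CR and 239 CPM in obese, a ratio of 0.69 (0.57 to 0.81). In lipid-associated MØs 0 of 4 such genes passed, against 3.39% of all genes higher and 0.877% lower. In phagocytic MØs 1 of 4 was higher and 0 lower, against 10.7% and 6.15%: Hilpda, a lipid droplet protein, was 112 CPM in CR and 72.0 CPM in obese, a ratio of 0.61 (0.36 to 0.86). Other classes went both ways. In cDC1s Ddit4 was lower (−1.006, −1.445 to −0.578), against 1.15% of all genes. In patrolling monocytes Mif (−0.69, −1.40 to −0.02) and P4ha1 (−0.68, −1.84 to 0.41) were lower, against 8.44%. Ankrd37 was higher there (0.86, −0.165 to 1.84), against 15%, and Hilpda in the mast and neutrophil cluster (1.546, 1.21 to 1.885), against 26.9%. Ddit4 and P4ha1 passed the minimum through obese alone and Ankrd37 through CR alone. Mpc2, a subunit of the mitochondrial pyruvate carrier, was 453 CPM in CR and 246.5 CPM in obese phagocytic MØs, a ratio of 0.87 (0.73 to 1.00), and the only gene of 2 measured there among 13 of pyruvate entry that passed. It was not bound to these cells. Mpc2 was also higher in CR cycling MØs (0.88, 0.68 to 1.09) and patrolling monocytes (0.91, 0.45 to 1.37), where 10.9% and 15% of all genes were higher. Its ratio was −0.14 in lipid-associated MØs and −0.12 in T cells.

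A further list held 12 genes of the NADPH oxidase and of NADPH-linked redox and glutathione enzymes. In lipid-associated MØs 10 of 12 were measured, 2 of them higher in CR and 0 lower, against 3.39% and 0.877% of all genes: Gclm, a subunit of the enzyme that starts glutathione synthesis, at 189 CPM in CR and 63.8 CPM in obese (log2 ratio 1.497, 1.27 to 1.72), and Gsr, glutathione reductase, at 107 CPM in CR and 37.1 CPM in obese (1.42, 1.12 to 1.70), which passed the minimum through CR alone. Gsr was also higher in CR activated MØs, at 157 CPM in CR and 93.5 CPM in obese (0.72, 0.53 to 0.91), the only gene of 9 measured there that passed, against 7.16% and 2.07%. In cycling MØs 2 of 8 were higher and 0 lower, against 10.9% and 4.91%, namely Gsr (61.99 CPM in CR, 36.3 CPM in obese) and Gclm (84.6 CPM in CR, 35.8 CPM in obese). In cDC2s 1 of 7 was higher and 0 lower, against 7.02% and 2.14%, Gsr at 89.2 CPM in CR and 43.5 CPM in obese, and in these 2 classes the genes passed the minimum through CR alone. In phagocytic MØs 0 of 6 were higher and 2 lower, against 10.7% and 6.15%: Ncf4, a cytosolic subunit of the phagocyte NADPH oxidase, at 21.8 CPM in CR and 98.8 CPM in obese (−1.95, −2.28 to −1.62), which passed the minimum through obese alone, and Idh1, an NADPH-forming isocitrate dehydrogenase, at 60.3 CPM in CR and 111 CPM in obese (−0.83, −1.08 to −0.57). Of 17 immediate early and heat shock genes, which respond to handling of the tissue, 3 of 15 measured were higher and 1 lower in CR activated MØs, against 7.16% and 2.07% of all genes. They were 6 of 14 higher and 2 lower in CR lipid-associated MØs, against 3.39% and 0.877%, and 6 of 14 higher and 0 lower in CR phagocytic MØs, against 10.7% and 6.15%. Their part in the results was not tested. Of 11 glycogen genes 1 was measured in activated MØs and higher in CR, Ugp2, which makes UDP-glucose, at 87.3 CPM in CR and 54.5 CPM in obese (0.63, 0.39 to 0.88).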

How the data were processed

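The 2 libraries (CR and obese, 1 each) held live CD45+ cells from perigonadal VAT. The deposited values are raw UMI counts per gene and cell, which the authors made with Cell Ranger 2.2 (v2 10x Chromium 3′ reads, mm10) and deposited as filtered matrices. Cells with at least 200 genes and below upper limits of 3 median absolute deviations for mitochondrial share and UMIs were kept, which left 2987 CR and 5262 obese cells, or 83.9% and 90.8%. No doublet caller was run, so doublets below the UMI limit stayed in. The libraries were aligned on 25 canonical correlation vectors of 695 variable genes, without the 32 genes described, and clustered (30 neighbours, resolution 0.6). The 19 clusters were named from fixed markers, at least 3 of them 2-fold higher, so the names are rebuilt here and may differ from those of the study.

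UMIs were summed per class and library. Levels carry exact Poisson intervals, shares Clopper-Pearson intervals and ratios conditional binomial intervals, all at 95%. Depth ran from 155753 UMIs (CR IL-17-type T cells) to 7791803 UMIs (obese lipid-associated MØs) per class. With 1 library per condition no test was made. Genes named with values were the leading gene of each step, those at least 1.5-fold different between CR and obese in a class, and those differing at least 4-fold between classes in both libraries. The genes and lists were chosen with earlier results of these data known. The ratios and intervals were run on simulated sums of activated MØs and NK cells, drawn with the counting error that the intervals assume. Such sums hold no spread between cells, mice or libraries. The run checks the calculation and cannot tell how CR and obese mice differ. Alternatives changed the added CPM, filter, scaling (TMM in edgeR 4.0.16), depth, cell limits, resolution, alignment, clustering genes and class definition. Python 3.11.15, numpy 2.4.6, scipy 1.17.1, pandas 2.3.3, python-igraph 0.11.9, matplotlib 3.10.9 and R 4.3.3 were used, with GENCODE M21 positions on mm10.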

Additional observations from a re-analysis of the deposited data

Results flagged for a closer look

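In 2 of the genes the CR over obese ratio passed 1.5-fold in opposite directions in different classes. Pgk1 was higher in CR lipid-associated MØs (log2 ratio 0.67, 0.43 to 0.90), activated MØs (0.92, 0.71 to 1.12), cycling MØs (0.79, 0.53 to 1.05), cDC2s (0.71, 0.30 to 1.11) and the mast and neutrophil cluster (1.481, 0.59 to 2.39), and lower in CR patrolling monocytes (−0.63, −1.53 to 0.20). Pfkp was higher in the CR mast and neutrophil cluster (0.84, −0.23 to 1.90) and lower in CR patrolling monocytes (−0.72, −1.88 to 0.36). The differences between classes were not tested, since each condition had 1 library, and the patrolling monocyte intervals and both Pfkp intervals include 0.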

How the results depend on the processing

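Of 232 medians recomputed under other settings 26 changed sign, over 11 of the 19 medians, and 2 moved by more than their interval: that of B cells was 0.033 with no filter on low values, and that of lipid-associated MØs −0.28 with TMM factors. The total of 21 values at least 1.5-fold higher in CR became 51 with no filter, 12 with TMM factors, 12 without upper limits on mitochondrial share and UMIs (12 classes), 8 without alignment (9 classes) and 6 with a per-cell marker gate (9 classes). The total of 13 lower values became 7 with 20 CPM added, 29 with no filter, 23 with TMM factors, 6 in cells without cell division transcripts (9 classes), 8 at a resolution of 0.3 (10 classes), 5 without alignment and 5 with the gate. Fewer classes entered in part of these settings, and otherwise the cause was not tested. Of 2629 ratios of single genes recomputed 173 changed sign, over 81 of 193 ratios, among them 7 of the 441 recomputed from ratios past 1.5-fold. In the mast and neutrophil cluster these were Pfkp (−0.024), Pkm (−0.13) and Taldo1 (−0.33) without upper limits, and Pkm (−0.058), Slc16a3 (−0.003) and Taldo1 (−0.31) with limits of 5 median absolute deviations, and in IL-17-type T cells Tkt (0.011) without alignment.

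Activated MØs had no value in 3 of 15 settings: resolution 0.3, no alignment and the gate. For that class Slc16a3, above the minimum through CR alone, passed 1.5-fold in 12 of 12, Pgk1 in 11, Pkm in 10 and Aldoa in 8. Gapdh passed it in 14 of 15 in lipid-associated MØs and in 15 of 15 in NK cells, where Pgls did so as well, whereas Pgls in T cells passed in 8 of 15. No paired analysis was possible because each condition had 1 library, and for the same reason no replicate could be left out. Depth limited the classes of fewest cells: ratios of IL-17-type T cells and patrolling monocytes that passed 1.5-fold rest on 7 to 22 CR UMIs.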

Other observations

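In the clusters set aside because few of their cells had a Ptprc UMI, some of the genes also differed between the libraries. The shares of all genes past 1.5-fold were not counted in these clusters. Fibroblast-like cells (293 CR and 108 obese) had 79.4 CPM of Ldhb in CR and 26.5 CPM in obese, a log2 ratio of 1.42, where the median of all genes measured was −0.02. Ldhb passed the minimum there through CR alone and so had to be higher. Endothelial-like cells (238 CR and 51 obese) had 82.1 CPM of Tkt in CR and 184 CPM in obese, a ratio of −1.12, and 355 CPM of Gapdh in CR and 684 CPM in obese, a ratio of −0.94, where that median was 0.27. Erythroid-like cells (75 CR and 114 obese) had 55.8 CPM of Gapdh in CR and 117 CPM in obese, a ratio of −1.01, where that median was −0.61 and 18.6% of 558 genes were above 0. With 17 CR and 41 obese plasma cells, the median ratio over the genes measured there was 0.64, and that of all genes 0.26.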
